A study of Homo sapiens with 18 samples.

Results

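YAP1 and TAZ (gene symbol WWTR1), the TEAD factors TEAD1 and TEAD4, and 6 genes known as their targets or feedback regulators were followed through TGFβ-induced epithelial-mesenchymal transition (EMT) in 3 lung cancer cell lines. The 10 genes were chosen by name as a pathway, with earlier results of these data known, and were all found among the 19849 genes of the expression table, each read by 1 probe set. They fall into effectors (YAP1, WWTR1, TEAD1, TEAD4), targets (CTGF, now called CCN2, CYR61, now called CCN1, and ANKRD1) and regulators of the pathway that are known targets themselves or act on the LATS kinases (AMOTL2, LATS2, AJUBA). The lines were A549, HCC827 and NCI-H358, all established human non-small cell lung cancer lines grown in RPMI1640 medium with serum and glutamine. Parental cells of each line had no added cytokine. Mesenchymal cells of each line had been kept in 2 ng/ml TGFβ for 3 weeks by the sample labels. The methods of the study instead give a range of weeks, shorter for A549 than for HCC827 and NCI-H358. They also state that cells were re-seeded without TGFβ on the day before an experiment, without naming the arrays. Each of the 6 groups had 3 arrays, 18 in all, numbered here as replicates 1 to 3 in the order of the samples. The labels do not say what the arrays of a group share, and the study describes them as separate biological samples made at the same time, so p-values measure the spread within a single round of samples.

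In the Hippo pathway the kinases MST1/2 (STK4 and STK3) activate LATS1/2, which phosphorylate YAP1 and TAZ and keep them out of the nucleus. YAP1 and TAZ that enter the nucleus bind TEAD factors on DNA and switch on genes such as CTGF, CYR61 and ANKRD1. The pathway is controlled mostly through phosphorylation and location of these proteins, which RNA levels on an array do not measure. In epithelial cells it responds to cell contacts and cell shape, and CTGF is also a known target of TGFβ signalling.

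The upstream bases of 3 of the genes are shown here because they hold the letters bound by TEAD factors, GGAATG, while the RNA of the 3 genes behaved in 3 ways: CTGF was higher in every mesenchymal derivative, ANKRD1 moved in opposite directions between lines, and YAP1 was not called in any. Each run is the 250 bases before the RefSeq transcription start in GRCh38.p14, on the strand of the gene and read 5′ to 3′, with GGAATG, or its reverse complement, in capitals. The CTGF window is chr6:131951373-131951622 on the minus strand, the ANKRD1 window chr10:90921088-90921337 on the minus strand, and the YAP1 window chr11:102110197-102110446 on the plus strand.
CTGF: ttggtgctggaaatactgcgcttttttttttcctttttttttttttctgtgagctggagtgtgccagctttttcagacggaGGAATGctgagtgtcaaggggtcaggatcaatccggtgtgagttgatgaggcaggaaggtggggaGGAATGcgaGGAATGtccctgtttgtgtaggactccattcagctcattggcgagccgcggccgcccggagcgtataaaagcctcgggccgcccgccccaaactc
ANKRD1: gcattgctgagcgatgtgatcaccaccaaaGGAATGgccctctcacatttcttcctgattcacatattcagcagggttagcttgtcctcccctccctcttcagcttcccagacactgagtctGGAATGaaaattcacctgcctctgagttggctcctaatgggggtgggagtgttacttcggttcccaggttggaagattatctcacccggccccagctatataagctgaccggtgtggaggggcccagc
YAP1: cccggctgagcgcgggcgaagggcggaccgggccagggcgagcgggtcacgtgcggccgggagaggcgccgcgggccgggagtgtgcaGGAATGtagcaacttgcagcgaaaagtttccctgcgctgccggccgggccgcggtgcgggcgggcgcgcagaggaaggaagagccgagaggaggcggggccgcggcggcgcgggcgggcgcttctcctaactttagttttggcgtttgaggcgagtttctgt
In CTGF the motif began at positions -169, -104 and -95 from the start, in ANKRD1 at -220 and -128, and in YAP1 at -162. The motif was searched on both strands in the upstream windows of the 7 genes with an entry in the RefSeq promoter table, which has 10 starts for them. It was found before at least 1 start of 5 of the 7 genes, the 3 above and AMOTL2 and AJUBA, and before 5 of the 10 starts. For comparison, 11.9% of the 35114 promoters in the table hold it in a window of the same length. The genes were chosen by name as a pathway of TEAD factors and their targets, so these shares are not a test. The windows of WWTR1 and LATS2 held no match. TGANTCA, the letters bound by AP-1 factors, was found only in the ANKRD1 window, at -195, against 6.57% of all promoters, and it did not overlap the TEAD motif. A match is a stretch of letters and says nothing about binding in these cells. TEAD1, TEAD4 and CYR61 had no entry.

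Levels are log2 expression values normalised by the robust multi-array average (RMA), so a difference of 1 is a 2-fold change, and levels of different genes are not compared. The array medians lay between 6.31 and 6.47. Over all genes, log2 differences between arrays of 1 group had standard deviations from 0.163 to 0.282, and those between the states of 1 line from 0.719 to 0.896. HCC827 parental replicate 1 stood apart: its differences from replicates 2 and 3 had standard deviations of 0.261 and 0.282, against 0.182 between those 2 arrays and at most 0.236 within any other group. Values without this array are therefore given beside the changes of the 10 genes in HCC827. Comparisons of level between groups, and most differences of the change between lines, are given with all arrays only. The numbers in the sample titles form 2 runs, parted only by a skipped number. The lower run holds replicate 1 of each parental group and no other array. The labels do not say what the numbers stand for. Over all genes, the deviations of these 3 arrays from the other arrays of their groups correlated at 0.09 between A549 and HCC827, -0.03 between A549 and NCI-H358 and -0.25 between HCC827 and NCI-H358. The CTGF level of replicate 1 was the lowest of the parental arrays in each line. With the 3 arrays left out, or with the run as a term in the fit, the same comparisons of the 10 genes were called as with all arrays, both alternatives added after the data were seen. Of 5 epithelial markers, 3 were lower in mesenchymal A549 cells and 5 in each of the other lines, and of 5 mesenchymal markers 2, 4 and 4 were higher in A549, HCC827 and NCI-H358. By the calls defined below, 3.87%, 6.58% and 5.42% of all genes were lower and 4.15%, 4.89% and 3.96% higher in these lines. E-cadherin (CDH1) was lower and fibronectin (FN1) higher in all 3 lines. None of 5 endothelial and blood cell markers was above the 41.3rd percentile of all genes in any group. Whether fewer cells carried a transcript or each cell carried less of it cannot be told apart in these bulk samples.

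A gene was called higher or lower with a Benjamini-Hochberg adjusted p below 0.05 over all 19849 genes by limma and a change above 2-fold. In A549 cells 5 of the 10 genes were called, 1 higher (CTGF) and 4 lower (WWTR1, ANKRD1, AMOTL2, AJUBA), where 4.15% of all genes were called higher and 3.87% lower. In HCC827 cells 4 were called, 2 higher (CTGF, ANKRD1) and 2 lower (WWTR1, AJUBA), against 4.89% and 6.58% of all genes, and the 4 calls held without HCC827 parental replicate 1. In NCI-H358 cells 2 were called, CTGF higher and WWTR1 lower, against 3.96% and 5.42% of all genes. CTGF and WWTR1 were called in all 3 lines in 1 direction each, ANKRD1 was called in both directions, and YAP1, TEAD1, TEAD4, CYR61 and LATS2 were called in none. The parental and mesenchymal arrays did not overlap for 8, 9 and 7 of the 10 genes in A549, HCC827 and NCI-H358, where 52.4%, 51.2% and 51.6% of all genes did not overlap. At the thresholds of the study, a change above 5-fold and an adjusted p below 1e-05, 2 genes passed in A549 (CTGF, AJUBA), 2 passed in HCC827 (CTGF, ANKRD1) and 0 passed in NCI-H358, where 1.9%, 2.95% and 2.17% of all genes passed. By adjusted p alone, with no limit on the fold change, 8, 7 and 5 of the 10 genes passed in A549, HCC827 and NCI-H358, where 43.4%, 45.8% and 41.4% of all genes passed.

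**Figure D1:**
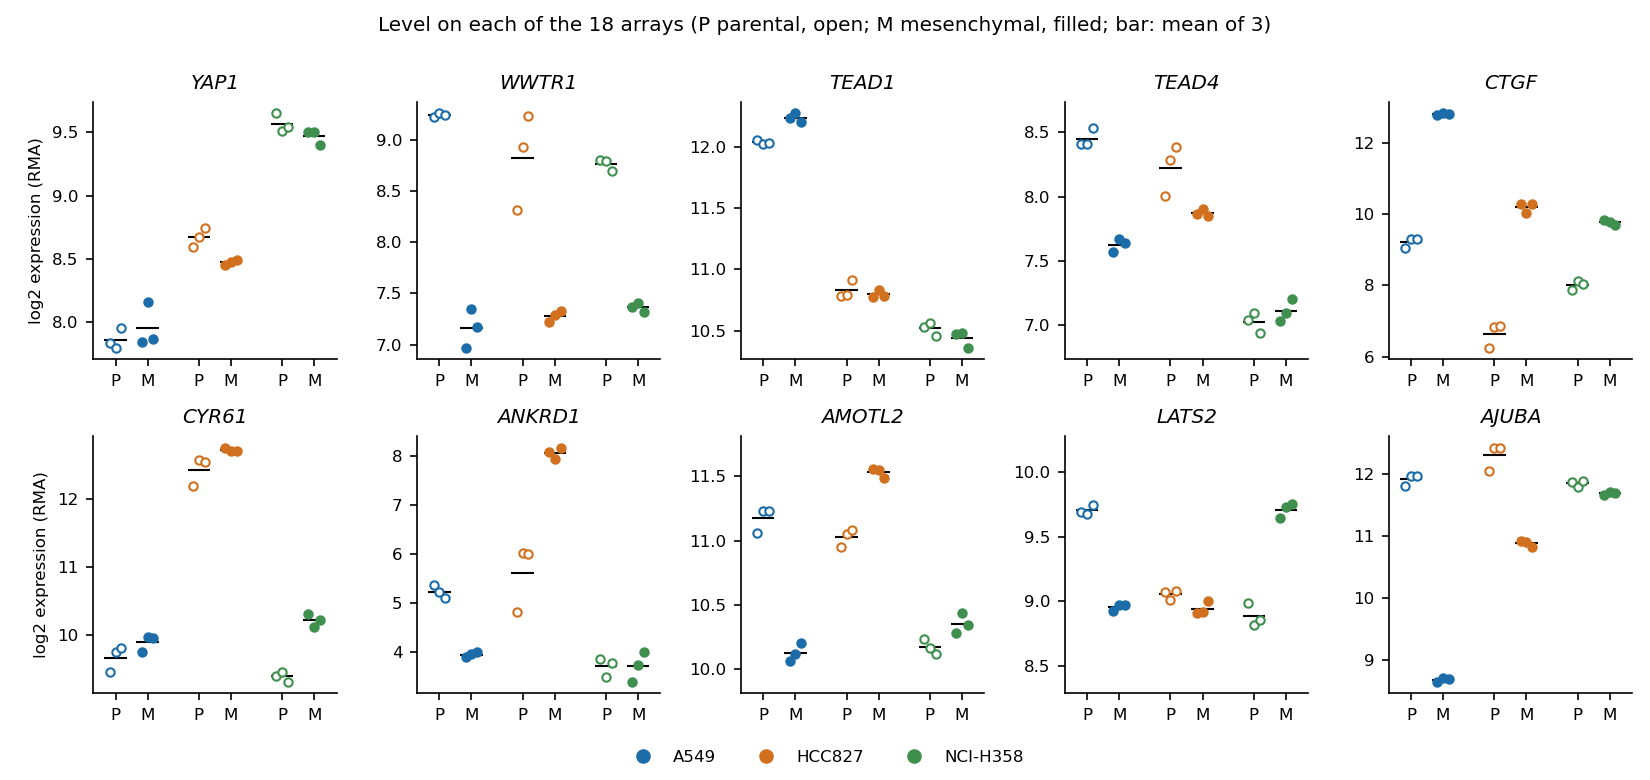
Log2 RMA level of each of the 10 genes on the 18 arrays, by line (colour) and state (P, parental, open points; M, mesenchymal, filled points), with the mean of 3 arrays as a bar; each panel has its own vertical scale, spanning at least 2 log2 units where the values range less. WWTR1 was lower and CTGF higher in all 3 mesenchymal groups, ANKRD1 moved in opposite directions in A549 and HCC827, and YAP1 and TEAD1 varied mainly between lines.

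WWTR1 encodes TAZ, the coactivator that shares most of its partners with YAP1. Its log2 level in A549 cells was 9.23, 9.26 and 9.24 on the parental arrays and 6.97, 7.34 and 7.17 on the mesenchymal arrays. The parental and mesenchymal arrays were far apart, and the log2 level of WWTR1 fell by 2.08 (standard error 0.15, limma adjusted p = 6.83e-09), a 4.23-fold decrease. In HCC827 cells WWTR1 was at 8.32, 8.93 and 9.23 in parental and 7.22, 7.29 and 7.33 in mesenchymal cells. The parental arrays of HCC827 were spread out, with replicate 1 lowest, and none came down to the mesenchymal range. The log2 level of WWTR1 fell by 1.55 in this line (limma adjusted p = 2.09e-07), or by 1.80 without HCC827 parental replicate 1. In NCI-H358 cells WWTR1 was at 8.81, 8.79 and 8.70 in parental and 7.37, 7.40 and 7.32 in mesenchymal cells, where it fell by 1.40 on the log2 scale (limma adjusted p = 8.59e-07), a 2.64-fold decrease. The 3 mesenchymal groups had close WWTR1 levels, with means of 7.16 (A549), 7.28 (HCC827) and 7.36 (NCI-H358), and neighbours in this order did not differ beyond their spread (limma adjusted p = 0.553 and 0.695). Among parental cells the WWTR1 mean of 9.24 in A549 was above that of 8.83 in HCC827 (limma adjusted p = 0.0282), while HCC827 and NCI-H358, at 8.77, did not differ beyond their spread (limma adjusted p = 0.783). Both comparisons include HCC827 parental replicate 1, at 8.32 against 8.93 and 9.23 in the other HCC827 parental arrays. They were not repeated without it, so the order of the parental means may rest on this array. The decrease of WWTR1 in A549 exceeded that in NCI-H358 by 0.68 (limma adjusted p = 0.018), a call lost without A549 mesenchymal replicate 1 (0.58, limma adjusted p = 0.0526).

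YAP1, the other coactivator, was not called in any of the 3 lines. In A549 cells the log2 level of YAP1 was 7.83, 7.80 and 7.95 on parental and 7.84, 8.16 and 7.87 on mesenchymal arrays, which overlapped. The change of YAP1 in A549 was 0.09 with a 95% confidence interval of -0.08 to 0.26 (limma adjusted p = 0.38). In HCC827 cells YAP1 was at 8.59, 8.67 and 8.74 in parental and 8.45, 8.48 and 8.49 in mesenchymal cells. These arrays did not overlap, and the change of -0.20 (interval -0.37 to -0.03) had a limma adjusted p of 0.0572, which became 0.0408 without HCC827 parental replicate 1. In NCI-H358 cells YAP1 was at 9.65, 9.51 and 9.54 in parental and 9.50, 9.50 and 9.40 in mesenchymal cells, a change of -0.10 (interval -0.27 to 0.07). The intervals of all 3 changes lie within 0.37 of 0, well inside a 2-fold change. YAP1 varied more between lines, in the order NCI-H358, HCC827, A549 in both states. Parental NCI-H358 cells were 1.70 above parental A549 cells (limma adjusted p = 5.64e-12), and parental HCC827 cells 0.81 above them (limma adjusted p = 1.27e-07).

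The TEAD factors bring YAP1 and TAZ to DNA, and neither of the pair followed here was called. TEAD1 ranged from 12.03 to 12.06 on the parental and from 12.21 to 12.28 on the mesenchymal A549 arrays, an increase of 0.20 (limma adjusted p = 0.00959) that was under 2-fold. The change of TEAD1 was -0.03 for HCC827 (limma adjusted p = 0.687), or -0.06 without HCC827 parental replicate 1, and -0.08 for NCI-H358 (limma adjusted p = 0.309). TEAD1 was highest in A549, with the parental mean 1.21 above that of HCC827 cells (limma adjusted p = 9.59e-12). TEAD4 was at 8.41, 8.41 and 8.54 in parental and 7.57, 7.67 and 7.64 in mesenchymal A549 cells, without overlap. TEAD4 changed by -0.82 in this line (limma adjusted p = 4.83e-07) and by -0.35 in HCC827 (limma adjusted p = 0.00232), or -0.46 without HCC827 parental replicate 1, all under 2-fold. In NCI-H358 the TEAD4 difference was 0.09 (limma adjusted p = 0.49). NCI-H358 had the lowest TEAD4 levels, with means of 7.03 and 7.11 in parental and mesenchymal cells.

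**Figure D2:**
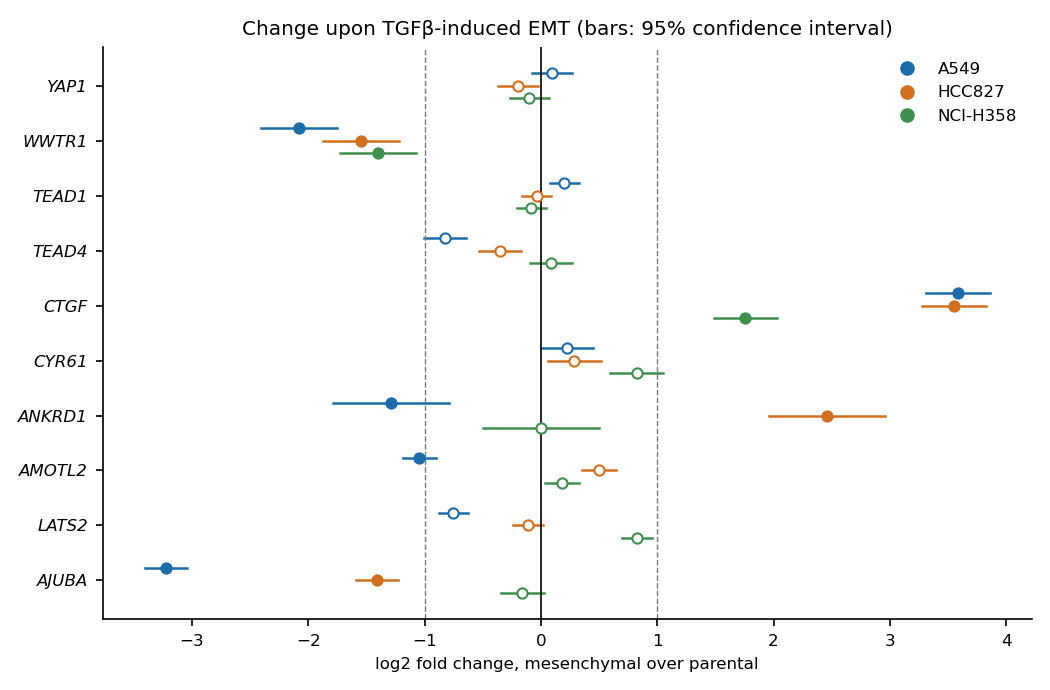
Log2 fold change of each gene, mesenchymal over parental, with its 95% confidence interval from limma, in A549, HCC827 and NCI-H358; filled points were called (adjusted p below 0.05 and above 2-fold, dashed lines at 1 and -1), open points were not. CTGF lay to the right of the dashed line and WWTR1 to the left in all 3 lines, and ANKRD1 ranged from -1.29 in A549 to 2.46 in HCC827.

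CTGF, a secreted matricellular protein and the most used read-out of YAP1 and TAZ activity, was the only gene of the 10 called higher in all 3 lines. In A549 cells its log2 level was 9.06, 9.31 and 9.29 on parental and 12.77, 12.83 and 12.81 on mesenchymal arrays. In HCC827 cells CTGF was at 6.26, 6.83 and 6.85 in parental and 10.28, 10.03 and 10.27 in mesenchymal cells. In NCI-H358 cells CTGF was at 7.87, 8.13 and 8.04 in parental and 9.83, 9.78 and 9.70 in mesenchymal cells. Every mesenchymal array was above every parental array of its line. CTGF increased in A549 by 3.59 (standard error 0.13, limma adjusted p = 5.3e-13), or 12.0-fold. Its log2 increase in HCC827 was 3.55 (limma adjusted p = 4.98e-13), or 11.7-fold, and 3.36 without HCC827 parental replicate 1. In NCI-H358 the increase of CTGF was 1.76 (limma adjusted p = 5.44e-09), or 3.38-fold, smaller than in A549 by 1.83 and than in HCC827 by 1.79 on the log2 scale. The A549 and HCC827 increases differed by -0.04 with limma adjusted p = 0.904. The 3 mesenchymal groups had the 3 highest CTGF means, 12.80 (A549), 10.19 (HCC827) and 9.77 (NCI-H358), and all neighbours in the order of the 6 groups differed beyond their spread.

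CYR61 encodes a matricellular protein of the same family as CTGF, and its level was highest in HCC827 in both states. In HCC827 cells the log2 level of CYR61 was 12.18, 12.57 and 12.53 on parental and 12.75, 12.70 and 12.70 on mesenchymal arrays, with HCC827 parental replicate 1 lowest. The HCC827 arrays were all higher than any array of the other lines, and the parental mean of CYR61 was 2.76 above that of A549 cells (limma adjusted p = 4.76e-13). The change of CYR61 in HCC827 was 0.29 (limma adjusted p = 0.0351), and without HCC827 parental replicate 1 it was 0.17 (limma adjusted p = 0.204). In A549 cells CYR61 was at 9.45, 9.75 and 9.81 in parental and 9.76, 9.97 and 9.96 in mesenchymal cells, a change of 0.23 with overlapping arrays (limma adjusted p = 0.1). The NCI-H358 values of CYR61 were 9.41, 9.47 and 9.32 in parental and 10.32, 10.13 and 10.22 in mesenchymal cells. This was the widest gap for CYR61, 0.82 on the log2 scale or 1.77-fold (limma adjusted p = 6e-06), and it exceeded the changes in A549 by 0.60 and in HCC827 by 0.53.

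ANKRD1, a nuclear ankyrin repeat protein of muscle and stressed cells, moved in opposite directions in A549 and HCC827. In A549 cells its log2 level was 5.38, 5.23 and 5.12 on parental and 3.90, 3.96 and 4.00 on mesenchymal arrays, and it fell by 1.29 (standard error 0.23, limma adjusted p = 0.000239). The HCC827 values of ANKRD1 were 4.82, 6.02 and 6.00 in parental and 8.08, 7.96 and 8.18 in mesenchymal cells. HCC827 parental replicate 1 was more than 1 unit below the other parental arrays, and all mesenchymal arrays were above them. The log2 increase of ANKRD1 in HCC827 was 2.46 (limma adjusted p = 1.27e-07), or 5.49-fold, and without HCC827 parental replicate 1 it was 2.06, or 4.17-fold, which is under the 5-fold threshold of the study. In NCI-H358 cells ANKRD1 was at 3.87, 3.49 and 3.78 in parental and 3.40, 3.74 and 4.01 in mesenchymal cells. These arrays overlapped, with means of 3.71 in both states and an interval of the change from -0.50 to 0.50. The ANKRD1 changes in HCC827 and A549 differed by 3.74 (limma adjusted p = 8.51e-08). Outside mesenchymal HCC827 cells ANKRD1 lay between the 12.4th and the 38.9th percentile of all genes, the dim end of the scale.

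AMOTL2, an angiomotin family protein that holds YAP1 at junctions, AJUBA, a LIM protein that restrains LATS kinases, and the kinase LATS2 were each lower in mesenchymal A549 cells by adjusted p, and each changed differently in the other lines. AJUBA was at 11.80, 11.96 and 11.96 in parental and 8.66, 8.71 and 8.70 in mesenchymal A549 cells. Its log2 level fell by 3.22 (standard error 0.09, limma adjusted p = 1.09e-14), a 9.33-fold decrease and the largest of the 10 genes. In HCC827 cells AJUBA was at 12.04, 12.42 and 12.41 in parental and 10.92, 10.90 and 10.83 in mesenchymal cells, and it fell by 1.41 (limma adjusted p = 4.18e-10), or by 1.53 without HCC827 parental replicate 1. In NCI-H358 cells AJUBA was at 11.87, 11.78 and 11.88 in parental and 11.66, 11.71 and 11.68 in mesenchymal cells. Those arrays did not overlap, but the change of -0.16 had a limma adjusted p of 0.166, with an interval from -0.34 to 0.02. The AJUBA decrease thus ran in the order A549, HCC827, NCI-H358, and each pair of lines differed in it, by 1.82 between HCC827 and A549 and by 1.25 between NCI-H358 and HCC827.

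AMOTL2 was at 11.06, 11.23 and 11.23 in parental and 10.07, 10.12 and 10.20 in mesenchymal A549 cells, and it fell by 1.04 on the log2 scale (limma adjusted p = 1.45e-09). This decrease, 2.06-fold, is just past the threshold, and with arrays centred on their medians it was -0.98 and no longer called. In HCC827 cells AMOTL2 was at 10.95, 11.05 and 11.08 in parental and 11.56, 11.54 and 11.48 in mesenchymal cells, the opposite direction, with a change of 0.50 (limma adjusted p = 8.95e-06), or 0.46 without HCC827 parental replicate 1. The AMOTL2 change in NCI-H358 was 0.18 (limma adjusted p = 0.0441). LATS2 was at 9.69, 9.68 and 9.74 in parental and 8.92, 8.97 and 8.97 in mesenchymal A549 cells. In NCI-H358 cells LATS2 was at 8.99, 8.81 and 8.85 in parental and 9.65, 9.73 and 9.75 in mesenchymal cells. The arrays did not overlap in either line, and LATS2 was lower in the mesenchymal cells of A549 and higher in those of NCI-H358. For LATS2 the A549 cells had a change of -0.75 (limma adjusted p = 1.78e-08) and the NCI-H358 cells one of 0.83 (limma adjusted p = 4.65e-09). The HCC827 change of LATS2 was -0.11 (limma adjusted p = 0.145), or -0.10 without HCC827 parental replicate 1, and all 3 were under 2-fold. Parental A549 and mesenchymal NCI-H358 cells shared the top of the LATS2 order at 9.71, and the other 4 groups lay between 8.88 and 9.06. No neighbours among these 4 differed beyond their spread. The ends of their range did, with parental NCI-H358 minus parental HCC827 at -0.17 (limma adjusted p = 0.0235).

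Each of the 10 genes was tested for whether its change differed between lines, 30 tests in all, with p adjusted over all genes. The change in HCC827 differed from that in A549 for 7 genes, where 42.2% of all genes differed by adjusted p alone. It differed between NCI-H358 and A549 for 9 genes, all but YAP1, against 42.8% of all genes, and between NCI-H358 and HCC827 for 7, all but YAP1, WWTR1 and TEAD1, against 37.9%. These comparisons share arrays. The widest differences were those of ANKRD1 and AJUBA.

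Of 18 Hippo kinases and upstream regulators, 22.2%, 27.8% and 27.8% were called in A549, HCC827 and NCI-H358, where 8.02%, 11.5% and 9.38% of all genes were called in either direction. Of these 18 genes, 2 were called higher and 2 lower in A549, and 2 higher and 3 lower in each of the other lines, and the median log2 change of the list was 0.07, -0.05 and 0.0013, against -0.02, 0.0051 and 0.015 over all genes. FRMD6, a FERM domain protein placed upstream of the pathway, was higher in all 3 lines, by 2.26, 2.18 and 1.78 on the log2 scale in A549, HCC827 and NCI-H358. WWC1, the scaffold KIBRA that aids LATS activation, changed by 0.07, -2.37 and -1.11, the first not called. STK3, the kinase MST2, changed by -0.13, -1.18 and -1.76, again not called in A549. MAP4K4, which can phosphorylate LATS kinases, changed by 1.27, 1.78 and 0.0054, not called in NCI-H358.

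Of 5 other proteins that bind YAP1 or TAZ or inhibit LATS kinases, 0 were called higher and 2 lower in A549, 1 higher and 1 lower in HCC827, and 0 higher and 1 lower in NCI-H358, with median log2 changes of -0.77, 0.03 and -0.02. The called genes were 40%, 40% and 20% of this list, where 8.02%, 11.5% and 9.38% of all genes were called in either direction. Of 6 other TEADs and TEAD cofactors, 1 was called higher in each line and 1 lower in HCC827. In A549, HCC827 and NCI-H358 this was 16.7%, 33.3% and 16.7% of the 6 genes, against 8.02%, 11.5% and 9.38% of all genes. The one called higher was VGLL3, a vestigial-like TEAD cofactor, with log2 changes of 3.86, 3.82 and 1.21 in A549, HCC827 and NCI-H358. The median log2 change of these 6 genes was 0.14, 0.11 and 0.05.

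The wider set of YAP1 and TAZ target genes did not move in 1 direction. Of the 16 measured genes of a list of 17 (NUAK2 was not matched), 4 were called higher and 5 lower in A549, 3 higher and 3 lower in HCC827, and 4 higher and 2 lower in NCI-H358, with median log2 changes of -0.53, 0.47 and 0.13. The called genes made up 56.2%, 37.5% and 37.5% of this list, against 8.02%, 11.5% and 9.38% of all genes called in either direction. CCDC80, a matrix protein, was higher in all 3 lines, by 1.79, 2.30 and 2.00 on the log2 scale. IGFBP3, a secreted binding protein of insulin-like growth factors, was lower in all 3, with log2 changes of -1.39, -5.05 and -1.44. MYOF, a membrane repair protein, was lower in A549 (-3.52) and HCC827 (-1.06), and its change of -0.58 in NCI-H358 was not called. RBMS3, an RNA-binding protein, was higher in HCC827 (1.34) and NCI-H358 (1.82), with an uncalled 0.08 in A549. Of 8 genes known to respond to TGFβ through SMAD factors, 6 were called higher and 0 lower in each line. Their median log2 changes were 1.56, 3.09 and 1.69, and 4.15%, 4.89% and 3.96% of all genes were called higher. Among these 8, TAGLN (transgelin) rose by 3.64, 4.21 and 3.76, PMEPA1 by 1.29, 4.52 and 2.92, and LTBP2 by 2.05, 4.53 and 2.05. Without HCC827 parental replicate 1, a comparison added after the data were seen, the HCC827 counts of these 5 lists were the same and every named gene of them kept its HCC827 call. The HCC827 medians without it were -0.0073 for the Hippo list, 0.10 for the binding list, 0.04 for the TEADs and cofactors, 0.40 for the other targets and 3.05 for the TGFβ-SMAD genes. The lists were chosen with earlier results of these data known. They stand beside the 10 genes as counts, and their parts in the changes of CTGF or WWTR1 were not tested.

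**Figure D3:**
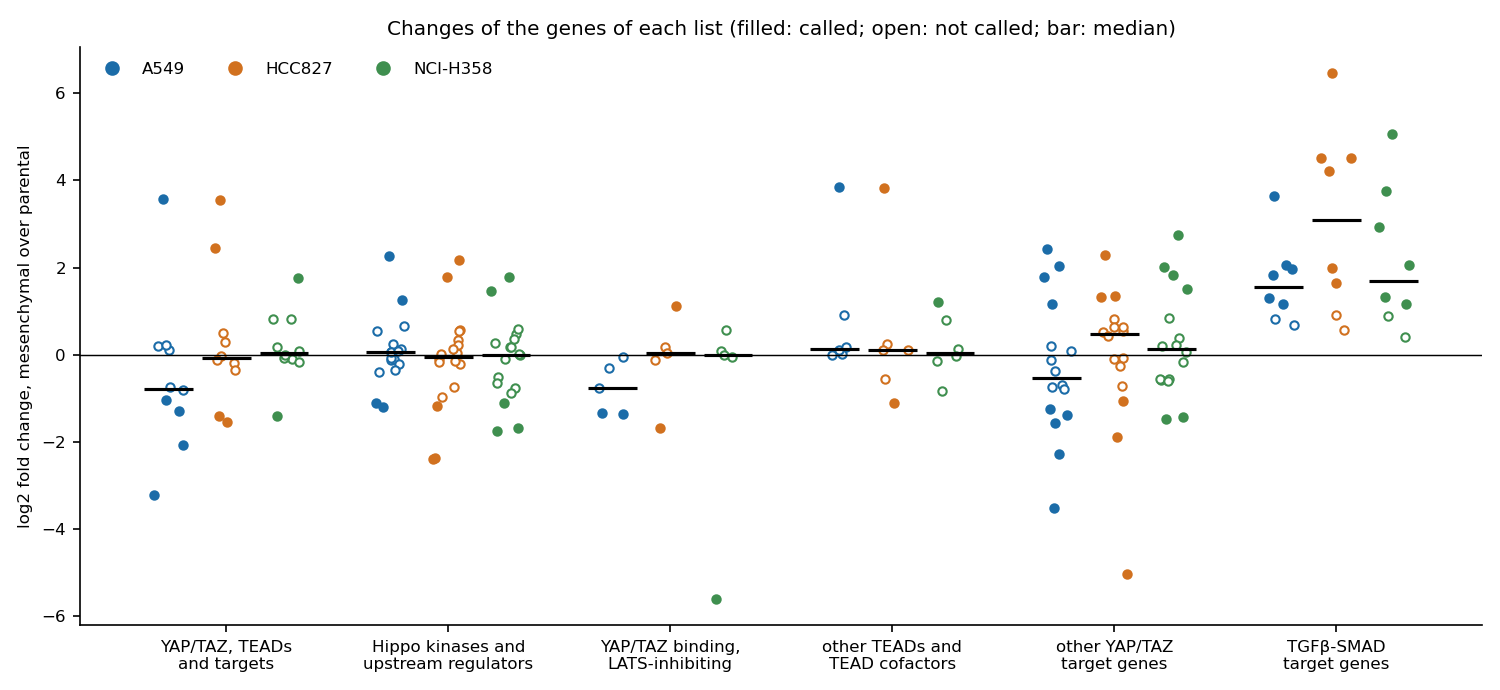
Log2 fold change, mesenchymal over parental, of every measured gene of 6 lists (horizontal axis) in each line (colour); filled points were called, open points were not, and the bar is the list's median. The TGFβ-SMAD target genes all lay above 0, with medians of 1.56, 3.09 and 1.69, while the other YAP/TAZ target genes lay on both sides.

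The genes whose pattern over the 6 group means was most like that of a given gene were found by the root mean square difference of centred group means, among 9060 genes that range over at least 1 log2 unit. For CTGF these included NUAK1 and ITPRIP, at distances of 0.53 and 0.58. For WWTR1 they were OXTR, HINT3 and EFNA5 at 0.19, 0.20 and 0.24, and for ANKRD1 CDON, SV2A and LAYN at 0.39, 0.52 and 0.56. For YAP1 they were FAR2P1, ZNF75A and LOC645261 at 0.09, 0.10 and 0.11, and for CYR61 they included ZNF713 and GLT8D2 at 0.11 and 0.22. These are descriptions over 6 groups of arrays.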

How the data were processed

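RNA of 18 samples was hybridized to Affymetrix U133 Plus 2.0 arrays. The authors applied RMA (background correction, equal distributions across arrays, 1 value per probe set) and deposited log2 values of 19849 genes with 1 probe set each. How that probe set was chosen is not given in the sources used here, and other probe sets were not analysed. Probe-level and scan data were not used here, so dim signals have no detection call.

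Groups were taken from the sample labels, which name no pairing or batch. The title numbers fall into 2 runs, tested as a term in the fit. All 18 arrays were fitted once as 6 groups without covariates, by lmFit and eBayes of limma 3.58.1 (R 4.3.3), and p-values were adjusted over all genes by the Benjamini-Hochberg method. The steps were tested on simulated data. The precision is limited by 3 arrays per group, and an exact permutation test of 3 against 3 cannot go below p = 0.1. The 10 genes and the gene lists were chosen with earlier results of these data known. Beyond the 10, the genes named were, from each list, up to 4 with the largest mean change among those called in 2 or more lines in 1 direction, and the 3 genes most like each of 5 members. Some genes that this rule names are not reported here. CDH1 and FN1 are named from the marker lists by the same rule. Alternatives were other thresholds, removal of dim genes (mean log2 level below 5), a variance trend on intensity, a fit per line, arrays centred on their medians, the methods' t-test and each array left out. Motifs were searched in RefSeq promoters of GRCh38.p14.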

Additional observations from a re-analysis of the deposited data

Results flagged for a closer look

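Of the 30 differences of the change between lines, 23 passed limma's test with an adjusted p below 0.05, and no explanation was tested for them. Over all genes, 42.2% passed in HCC827 minus A549, 42.8% in NCI-H358 minus A549 and 37.9% in NCI-H358 minus HCC827. Each value below is the log2 fold change upon EMT in the first line minus that in the second.

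In HCC827 minus A549, the changes of ANKRD1, AJUBA and AMOTL2 differed by 3.74, 1.82 and 1.55, those of LATS2 and TEAD4 by 0.64 and 0.47, and those of YAP1 and TEAD1 by -0.29 and -0.24. The YAP1 difference had a limma adjusted p of 0.0497 and passed in only 4 of 18 fits with 1 array left out, and that of TEAD1 passed in 14 of 18. ANKRD1 fell in A549 and rose in HCC827.

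In NCI-H358 minus A549, the changes of AJUBA, LATS2, ANKRD1 and AMOTL2 differed by 3.06, 1.58, 1.29 and 1.22, those of TEAD4, WWTR1 and CYR61 by 0.91, 0.68 and 0.60, and those of CTGF and TEAD1 by -1.83 and -0.28. Every LATS2 array of mesenchymal cells was below the parental arrays in A549 and above them in NCI-H358.

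In NCI-H358 minus HCC827, the changes of AJUBA, LATS2, CYR61 and TEAD4 differed by 1.25, 0.94, 0.53 and 0.44, and those of ANKRD1, CTGF and AMOTL2 by -2.46, -1.79 and -0.32. Without HCC827 parental replicate 1 the change of WWTR1 also differed, by 0.40 (limma adjusted p = 0.0262).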

How the results depend on the processing

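The calls of WWTR1, CTGF, ANKRD1 and AJUBA kept their direction and their side of the 2-fold threshold in the fit per line, with an intensity trend, with dim genes left out, with centred arrays, by the methods' t-test and with each array left out. In these settings the number of genes called stayed within 1.5 times of 5, 4 and 2 in A549, HCC827 and NCI-H358. ANKRD1 passed the dim filter, a mean log2 level of 5, only through mesenchymal HCC827 cells. Its mean was 8.07 there and from 3.71 to 5.62 in the other groups, so leaving out dim genes is no check of its calls. At the study's thresholds 2, 2 and 0 genes were called, and with no limit on the fold change 8, 7 and 5 (43.4%, 45.8% and 41.4% of all genes). Centring arrays ended the AMOTL2 call in A549 (-0.98) and turned the uncalled TEAD1 change in HCC827 to 0.0302. With 1 array left out, uncalled changes that turned sign were those of YAP1 in A549 (-0.0053 to 0.15), TEAD1 in HCC827 (-0.06 to 0.0089) and ANKRD1 in NCI-H358 (-0.15 to 0.16). Differences between lines that turned sign, none past the threshold with all arrays, were those of CTGF (-0.23 to 0.0654) and CYR61 (-0.0595 to 0.17) in HCC827 minus A549 and WWTR1 in NCI-H358 minus HCC827 (-0.0577 to 0.40). The WWTR1 difference of HCC827 minus A549, 0.53 with a limma adjusted p of 0.0595, passed with an intensity trend (0.034), with dim genes left out (0.0481), without HCC827 parental replicate 3 (0.00334), without A549 mesenchymal replicate 2 (0.0388) and with the run of title numbers as a term (0.0428). The YAP1 difference of HCC827 minus A549 (adjusted p 0.0497) no longer passed with centred arrays (0.0639), the run as a term (0.0576) or the 3 parental arrays of the lower run left out (0.0652). Leaving out those 3 arrays brought the WWTR1 difference of NCI-H358 minus HCC827 past the threshold (0.42, adjusted p 0.0404), and the run as a term turned the uncalled ANKRD1 change in NCI-H358 to -0.0836. No paired analysis was possible because the labels give no replicate numbers. The cause of these shifts was not tested. Signal over background could not be assessed from the normalized values.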
